A study of Homo sapiens with 38 samples.

Results

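The genes described here encode the proteins of the cytosolic ribosome. They were chosen by symbol, after the Ensembl identifiers of the count table had been matched to GENCODE 29: protein-coding genes named RPL or RPS with a number, together with RPSA, RPLP0, RPLP1 and RPLP2, leaving out the RPS6K kinases and pseudogenes. This gave 85 of 18011 genes, of which 46 are canonical genes of the large subunit, 31 are canonical genes of the small subunit and 8 are paralogs of a canonical gene. A further 5 genes under the same rule had no row in the table used here. FAU, which also yields a ribosomal protein, and RACK1, which sits on the small subunit, are not named by the rule and are given beside the others.

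The RNA came from 6 established cell lines of human diffuse large B-cell lymphoma, OCILY1, PFEIFFER, SUDHL4, SUDHL6, TOLEDO and WSUDLCL2. They were kept for 6 h with pracinostat (6 libraries), vorinostat (5 libraries, none of SUDHL6) or the solvent DMSO (6 libraries), or for 14 days, without SUDHL6, with pracinostat or vorinostat and with a DMSO library for each drug, titled DMSOP and DMSOV (5 libraries in each of these 4 groups). Pracinostat and vorinostat inhibit histone deacetylases, the enzymes that remove acetyl groups from histones and other proteins, and the title of the study asks how sensitivity to such drugs differs between lines. No genotype or allele is given for any group, and no dose is stated. At 14 days pracinostat was set against DMSOP and vorinostat against DMSOV, which is a reading of the titles. At 6 h both drugs were set against the same DMSO libraries, so those comparisons share their control. The sample titles call this 6 h solvent DMSO alone. The labels of the deposited log2 values call it DMSOV in OCILY1, SUDHL4, SUDHL6 and WSUDLCL2, and DMSOP in PFEIFFER and TOLEDO. At 6 h a drug was thus not always set against the solvent label used for it at 14 days.

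A ribosome holds 1 copy of nearly every ribosomal protein, and the proteins are made in the cytosol, carried into the nucleolus and assembled there on ribosomal RNA. Their messenger RNAs mostly begin with a cytosine followed by a run of pyrimidines, the TOP motif, through which mTOR and the RNA-binding protein LARP1 control their translation. The genes are transcribed strongly in growing cells, and MYC, a driver of many B-cell lymphomas, raises their expression. Free RPL5 and RPL11 can bind MDM2 when ribosome assembly fails.

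Total counts per library ran from 3.19 to 8.92 M, and a count of 0 allowed up to 0.332 to 1.02 CPM depending on the library, which covers counting error only. Levels are CPM, a gene's counts relative to its library's total, adjusted by the trimmed mean of M-values (TMM). The line stood as the replicate, with a single library for each of its treatments. Nothing in the sources says that a line's libraries came from separate cultures, so p-values measure only the spread of differences between lines. The B-cell marker genes were present in every library, with 8 of 8 in the table and a summed level of 1995 to 9921 CPM. T-cell markers summed to 0.307 to 130 CPM and fibroblast and epithelial markers to 0.373 to 288 CPM. In bulk RNA, more cells of a kind and more RNA per cell cannot be told apart.

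The starts of 9 of the genes are shown, those of large rises at 14 days, of the paralogs RPL7L1 and RPS27L, which did not share the rise, and of RPL39, the parent of the gene that fell. Each runs from 40 bases before to 20 bases from the transcription start listed in RefSeq (build GRCh38.p14), 5′ to 3′ on the gene's strand, with the pyrimidine run in capitals where one was found. The run was taken as a C within 5 bases of the start followed by at least 4 C or T.
RPS28: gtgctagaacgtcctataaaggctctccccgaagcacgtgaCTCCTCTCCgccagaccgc
RPLP2: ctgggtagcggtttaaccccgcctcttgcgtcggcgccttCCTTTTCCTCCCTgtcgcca
RPL18: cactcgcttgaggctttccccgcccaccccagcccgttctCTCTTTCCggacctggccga
RPS27: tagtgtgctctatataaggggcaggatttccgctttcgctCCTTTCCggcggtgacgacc
RPL27: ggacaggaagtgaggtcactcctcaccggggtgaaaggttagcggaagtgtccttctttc
RPL39: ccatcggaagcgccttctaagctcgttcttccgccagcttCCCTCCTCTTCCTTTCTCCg
RPL22L1: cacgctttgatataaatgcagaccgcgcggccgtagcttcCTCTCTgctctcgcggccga
RPL7L1: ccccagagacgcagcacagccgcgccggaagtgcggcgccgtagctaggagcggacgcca
RPS27L: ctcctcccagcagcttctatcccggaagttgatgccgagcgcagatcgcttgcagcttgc
These windows lie at chr19:8321456-8321515 (plus strand) for RPS28, chr11:809927-809986 (plus) for RPLP2, chr19:48619159-48619218 (minus) for RPL18, chr1:153990722-153990781 (plus) for RPS27, chr17:42998379-42998438 (plus) for RPL27, chrX:119791611-119791670 (minus) for RPL39, chr3:170870176-170870235 (minus) for RPL22L1, chr6:42879576-42879635 (plus) for RPL7L1 and chr15:63157458-63157517 (minus) for RPS27L. The run covers 9 bases in RPS28 and 13 in RPLP2, and it is longest of these in RPL39, at 19 bases. RPL27 has none within 5 bases of its listed start, although its window ends in an unbroken stretch of C and T further on. The paralogs RPL7L1 and RPS27L have no run by this rule. The windows printed are a selection. RPL22 and RPL36A, called with neither drug at 14 days, have runs of 7 and 10 bases. RPL36AL, called at 14 days with vorinostat alone, has a run of 7 bases.

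Of the 85 genes, 68 had at least 1 promoter in the RefSeq table. A pyrimidine run at the start was found in 56 of these 68 genes (82.4%), against 29.6% of 10688 protein-coding genes of the count table and 25.2% of all 27305 genes with a promoter. Within 250 bases before to 50 bases after the start, searched on both strands, the letters CCGGAA stood in 57.4% of the ribosomal protein genes, against 33.5% of the protein-coding genes and 20.1% of all. CACGTG stood in 7.35%, against 12.4% and 8.78%, and TATAAA in 8.82%, against 8.80% and 14.0%. None of these 3 words is part of another, and the pyrimidine run can take in the TTCC of TTCCGG, the reverse of CCGGAA. A match describes the letters in this window and not a site in use.

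At 14 days the ribosomal protein genes took a larger share of all counts with either drug than in DMSO, in every line. With pracinostat the share was 10.7% in OCILY1, 10.1% in PFEIFFER, 13.9% in SUDHL4, 10.7% in TOLEDO and 13.0% in WSUDLCL2, against 7.61%, 7.71%, 9.59%, 8.86% and 10.3% in DMSOP in the same order of lines. With vorinostat it was 10.4%, 11.0%, 16.6%, 15.4% and 11.9%, against 7.11%, 7.39%, 9.75%, 7.94% and 8.30% in DMSOV. The vorinostat libraries all lay above the DMSOV libraries, while the lowest pracinostat share, in PFEIFFER, lay below the highest DMSOP share, in WSUDLCL2. At 6 h the groups overlapped, with 8.90 to 11.6% with pracinostat, 7.73 to 11.5% with vorinostat and 8.48 to 11.5% in DMSO.

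**Figure D1:**
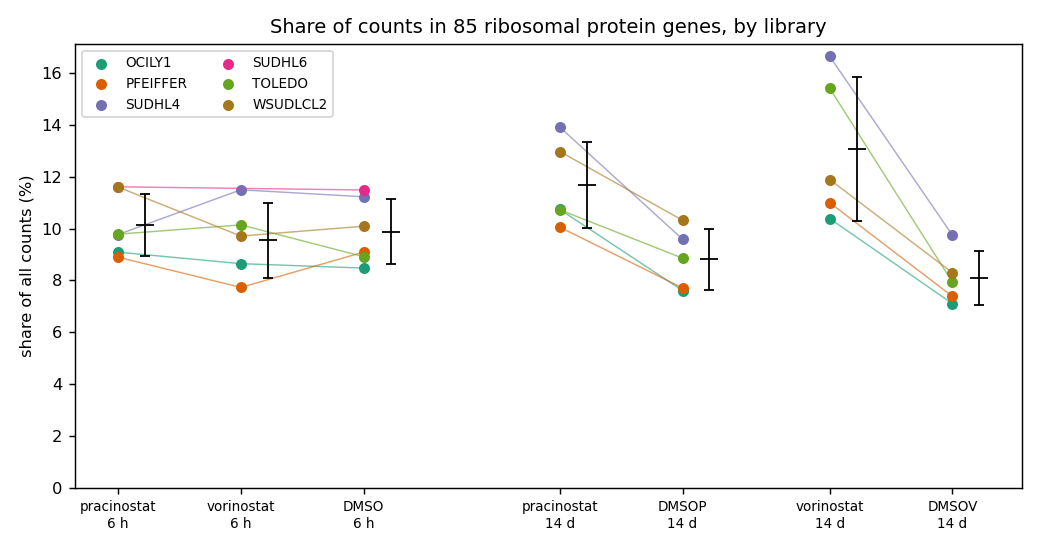
Share of all counts in the 85 ribosomal protein genes (percent, vertical axis) in each library, by treatment and time. Points are libraries coloured by line, thin lines join libraries of a line, and black marks give the mean and SD. The vorinostat libraries at 14 days sit between 10.4% and 16.6%, all above the DMSOV libraries, and the 6 h groups overlap.

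Gene by gene, 53 of 84 tested ribosomal protein genes rose with pracinostat at 14 days, by edgeR's quasi-likelihood test at a Benjamini-Hochberg adjusted p under 0.05 over 14037 genes, where 12.3% of all genes rose and 10.2% fell. The 1 that fell was RPL39L. The median log2 fold change of the 84 genes was 0.46, against 0.07 over all genes tested. RPL3L, the muscle paralog of RPL3, had too few counts to be tested. The count of 53 was 28 without OCILY1, 30 without PFEIFFER and 27 without SUDHL4, while the median stayed between 0.40 and 0.49 when any 1 line was left out.

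With vorinostat at 14 days 74 of 84 genes rose, where 20.4% of all genes rose and 17.2% fell, and again RPL39L alone was lower. The median log2 fold change was 0.79, against 0.12 over all genes. All 53 genes that rose with pracinostat also rose with vorinostat, which is 100% of the pracinostat list and 71.6% of the vorinostat list. Since vorinostat raised 88.1% of the 84 genes, most of any such list would be shared. The 2 lists come from separate DMSO sets, but from the same lines and 1 fit with a shared estimate of spread. Of the 77 canonical genes, 64 were higher in every line with pracinostat and 70 with vorinostat. The levels of a gene overlapped between drug and DMSO in most cases. The drug libraries lay wholly above the DMSO libraries for 6 of 77 canonical genes with pracinostat and for 17 with vorinostat. The test, which compares within lines, called 51 and 71 of the 77. The counts of overlap and of 1 sign in every line are given without a share over all genes, and describe these genes alone.

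**Figure D2:**
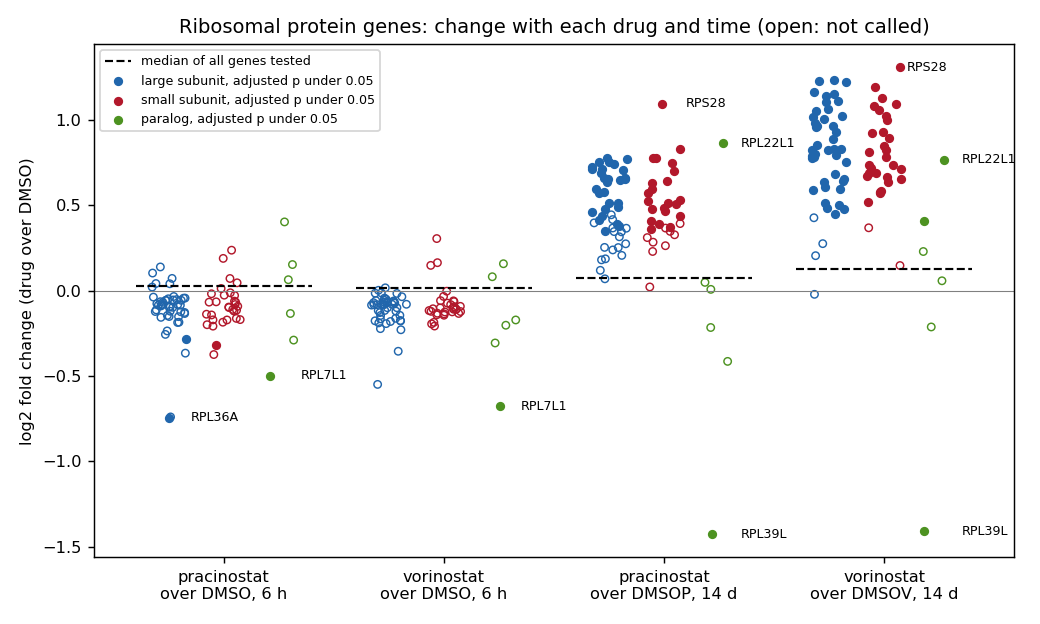
Log2 fold change (drug over DMSO, vertical axis) of each tested ribosomal protein gene in the 4 comparisons. Filled points passed an adjusted p of 0.05, open points did not, colours mark the large subunit, the small subunit and paralogs, and dashed lines give the median of all genes tested. Nearly all points lie above 0 at 14 days, where RPS28 is highest and RPL39L lowest.

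Genes of both subunits rose. With pracinostat 22 of 31 small-subunit genes and 29 of 46 large-subunit genes rose, with median log2 fold changes of 0.48 and 0.47. With vorinostat 29 of 31 and 42 of 46 rose, with medians of 0.73 and 0.82. The summed CPM of large-subunit genes over that of small-subunit genes averaged 1.57 ± 0.14 with pracinostat and 1.62 ± 0.12 in DMSOP, and 1.61 ± 0.16 with vorinostat and 1.64 ± 0.13 in DMSOV (SD, n = 5 each). Of 19 genes mutated in Diamond-Blackfan anaemia, an inherited failure of red cell production, 14 rose with pracinostat and 18 with vorinostat. RPS19, the one most often mutated in that disease, had log2 fold changes of 0.60 (SE 0.13) under pracinostat and 1.00 (SE 0.14) under vorinostat, both called.

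Among small-subunit genes the largest rise was that of RPS28 (ENSG00000233927, GRCh38 chromosome 19, 8321158 to 8323340), whose protein sits near the exit of the messenger RNA channel and whose start is shown above. It stood at 525, 624, 2596, 897 and 1316 CPM with pracinostat in OCILY1, PFEIFFER, SUDHL4, TOLEDO and WSUDLCL2, against 253, 179, 1122, 597 and 772 CPM in DMSOP. With vorinostat it stood at 700, 523, 3245, 1177 and 1183 CPM, against 338, 247, 1240, 403 and 495 CPM in DMSOV. Each line was higher with drug than without, yet SUDHL4 in DMSO exceeded several drug-treated lines, so the groups overlapped. The log2 fold change was 1.09 (SE 0.17, adjusted p = 0.00113) with pracinostat and 1.31 (SE 0.18, adjusted p = 8.21e-05) with vorinostat. Of its exon bases, 21.4% are shared with genes of the other strand, and no source used here gives the strand setting of the counting.

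RPS18, RPS27 and RPS23 followed among the small-subunit rises with pracinostat. Their log2 fold changes were 0.83 (SE 0.13), 0.78 (SE 0.16) and 0.78 (SE 0.13) with pracinostat and 1.13 (SE 0.14), 1.19 (SE 0.16) and 0.73 (SE 0.13) with vorinostat. RPS23, which lies at the decoding centre, had drug libraries wholly above the DMSO libraries with either drug, at 237 to 469 CPM with pracinostat against 161 to 235 CPM in DMSOP, and 230 to 349 CPM with vorinostat against 138 to 193 CPM in DMSOV. RPS6, the substrate of the S6 kinases, rose by 0.44 (SE 0.13) and 0.72 (SE 0.13). RPSA, also known as the laminin receptor, had 0.02 (SE 0.14, adjusted p = 0.93) and 0.37 (SE 0.14, adjusted p = 0.0517), and was lower than DMSO in PFEIFFER with either drug. RPS27A, which is made as a fusion with ubiquitin, had 0.26 (SE 0.13, adjusted p = 0.14) with pracinostat and rose by 0.59 (SE 0.13) with vorinostat.

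The largest rises of the large subunit with vorinostat were RPLP2, RPL18 and RPL27. RPLP2, with RPLP1 and RPLP0, forms the lateral stalk that recruits the GTPases of translation. It stood at 721, 699, 1445, 2451 and 1223 CPM with vorinostat in OCILY1, PFEIFFER, SUDHL4, TOLEDO and WSUDLCL2, against 414, 356, 696, 775 and 461 CPM in DMSOV. With pracinostat it stood at 777, 632, 1277, 1333 and 978 CPM, against 402, 372, 979, 946 and 661 CPM in DMSOP. TOLEDO held the highest level with either drug, and its margin over DMSO was the widest with vorinostat. The log2 fold changes were 0.66 (SE 0.13) with pracinostat and 1.24 (SE 0.13) with vorinostat.

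The other stalk genes moved less. RPLP1 had 0.40 (SE 0.14, adjusted p = 0.0566) with pracinostat and rose by 0.75 (SE 0.14) with vorinostat. RPLP0, the stalk base, had 0.12 (SE 0.17, adjusted p = 0.65) and 0.43 (SE 0.17, adjusted p = 0.0586). With vorinostat it stood at 5491 CPM in TOLEDO, against 2602 CPM in DMSOV, and at 2406 CPM in PFEIFFER, against 2456 CPM in DMSOV. The differences between these 3 genes were not tested.

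RPL18 averaged 1303 ± 313 CPM with pracinostat and 812 ± 292 CPM in DMSOP, and 1647 ± 600 CPM with vorinostat and 717 ± 197 CPM in DMSOV (SD, n = 5 each). RPL27 averaged 1557 ± 169 CPM with pracinostat and 966 ± 164 CPM in DMSOP, and 2097 ± 904 CPM with vorinostat and 895 ± 151 CPM in DMSOV (SD, n = 5 each). RPL27 did not overlap between drug and DMSO with either drug, and RPL18 did not with vorinostat. Their log2 fold changes were 0.75 (SE 0.15) and 0.72 (SE 0.16) with pracinostat and 1.23 (SE 0.16) and 1.22 (SE 0.16) with vorinostat. Of RPLP2, RPL18 and RPL27, the last has no pyrimidine run within 5 bases of its listed start, with a stretch of C and T further on.

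RPL5 and RPL11 assemble with the 5S ribosomal RNA. RPL11 rose with both drugs, with log2 fold changes of 0.57 (SE 0.15) and 1.02 (SE 0.15). RPL5 had 0.24 (SE 0.12, adjusted p = 0.17) with pracinostat and rose by 0.50 (SE 0.12) with vorinostat, to 2050 to 3088 CPM with vorinostat, against 1466 to 2270 CPM in DMSOV. MDM2, whose product both proteins can bind, had a log2 fold change of 0.23 (SE 0.37) with pracinostat and 0.33 (SE 0.38) with vorinostat and was not called. Of other large-subunit genes, RPL3, at the peptidyl transferase centre, had 0.34 (SE 0.14, adjusted p = 0.0785) with pracinostat and rose by 0.52 (SE 0.14) with vorinostat. RPL10, which completes the large subunit, had 0.19 (SE 0.15) and rose by 0.45 (SE 0.15). Of the exon bases of RPL10, 55.5% are shared with other genes on either strand and 2.80% on its own strand, with the strand setting of the counting unknown. The genes not called with vorinostat were RPL17, RPL22, RPL36A, RPLP0, RPS10 and RPSA among the canonical genes and RPL7L1, RPL26L1 and RPS27L among the paralogs. RPL17 and RPS10 were low in this table, at 16.3 and 14.2 CPM per kilobase of coding sequence in the 6 h DMSO libraries (mean of 6), and share 35.3% and 39.4% of their exon bases with other genes, a readthrough gene among them, so their counts may be partial.

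Of 7 tested paralogs, 2 were higher and 1 lower with pracinostat, and 3 higher and 1 lower with vorinostat. Among all genes tested, 12.3% were higher and 10.2% lower with pracinostat, and 20.4% and 17.2% with vorinostat. RPL39L (ENSG00000163923, chromosome 3, 187120948 to 187180908), a paralog of RPL39 best known from male germ cells, was the gene that fell. It stood at 9.38, 32.2, 4.96, 22.0 and 9.14 CPM with pracinostat in OCILY1, PFEIFFER, SUDHL4, TOLEDO and WSUDLCL2, against 32.9, 66.7, 25.8, 27.8 and 30.8 CPM in DMSOP. With vorinostat it stood at 8.29, 30.2, 2.73, 24.9 and 9.52 CPM, against 28.3, 65.2, 26.9, 31.3 and 29.3 CPM in DMSOV. All 5 lines were lower with each drug, least in TOLEDO, and PFEIFFER was highest in all 4 groups. The log2 fold change was -1.43 (SE 0.29, adjusted p = 0.00369) with pracinostat and -1.41 (SE 0.30, adjusted p = 0.00187) with vorinostat. RPL39 itself had 0.44 (SE 0.16, adjusted p = 0.0607) with pracinostat and rose by 0.89 (SE 0.17) with vorinostat. Per kilobase of coding sequence, RPL39L made up a mean of 2.25% of the pair with pracinostat and 6.45% in DMSOP, and 1.75% with vorinostat and 6.51% in DMSOV.

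RPL22L1 (chromosome 3, 170864875 to 170870483), a paralog of RPL22, rose with both drugs but unevenly between lines. It stood at 119, 232, 273, 27.5 and 65.3 CPM with pracinostat in OCILY1, PFEIFFER, SUDHL4, TOLEDO and WSUDLCL2, against 34.2, 117, 237, 20.9 and 44.6 CPM in DMSOP. With vorinostat it stood at 77.3, 220, 213, 46.8 and 129 CPM, against 33.9, 104, 257, 16.2 and 102 CPM in DMSOV. SUDHL4, the line with the highest DMSO level, changed least with pracinostat and was lower with vorinostat. The log2 fold change was 0.86 (SE 0.29, adjusted p = 0.0405) with pracinostat and 0.77 (SE 0.29, adjusted p = 0.0456) with vorinostat. Both calls were lost without OCILY1 (adjusted p = 0.178 and 0.0824), without PFEIFFER (0.143 and 0.149) or without TOLEDO (0.0674 and 0.225). RPL22 had 0.18 (SE 0.12) and 0.28 (SE 0.12, adjusted p = 0.0721).

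RPL36AL had 0.01 (SE 0.12) with pracinostat and rose by 0.41 (SE 0.12) with vorinostat. Per kilobase it took most of the counts of the RPL36A pair, 88.3% with pracinostat and 90.0% in DMSOP. Of the 31-base words of RPL36A's transcript 81.2% occur in another gene, against 30.2% for RPL36AL. The counts of RPL36A may therefore be partial and the share of RPL36AL too high. RPS27L, a paralog of RPS27, had -0.41 (SE 0.18, adjusted p = 0.11) and 0.06 (SE 0.18), while RPS27 rose. RPL26L1 had -0.22 (SE 0.15) and 0.23 (SE 0.15), while RPL26 rose by 0.71 (SE 0.11) and 0.80 (SE 0.11). RPL7L1 had 0.05 (SE 0.11) and -0.21 (SE 0.11), while RPL7 rose by 0.39 (SE 0.13) and 0.68 (SE 0.13). The Y-linked paralog is in the counts but its values are not given.

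**Figure D3:**
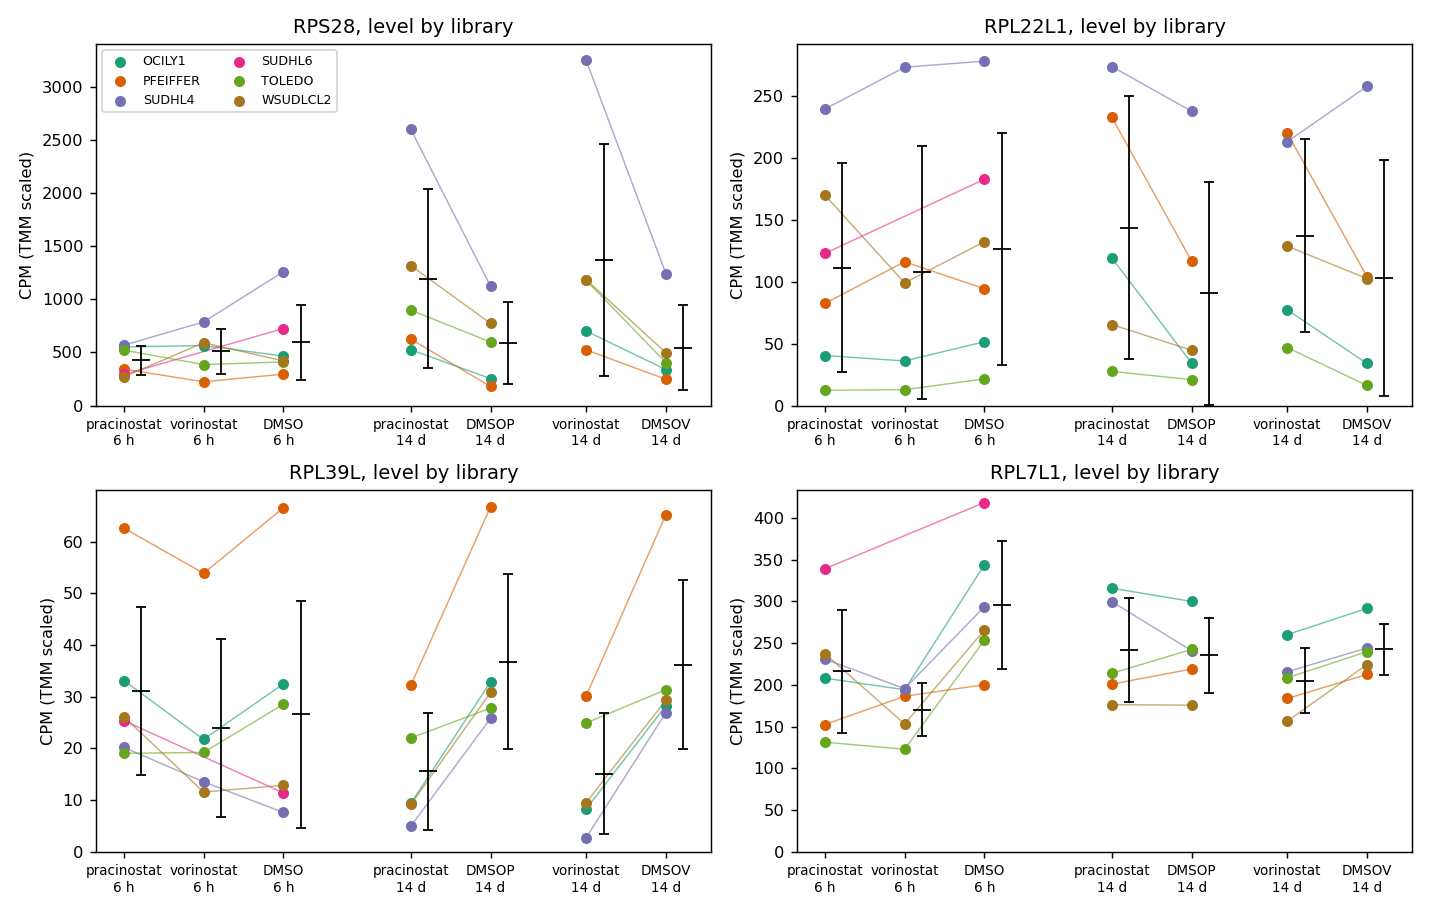
Level in CPM (vertical axes, from 0) of RPS28, RPL22L1, RPL39L and RPL7L1 in each library, by treatment and time. Points are libraries coloured by line, thin lines join libraries of a line, and black marks give the mean and SD. RPL39L is lower with drug than with DMSO in each line at 14 days, and RPL7L1 is lower in each line at 6 h.

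The lines differed in the size of the rise. With pracinostat the median log2 difference of the 77 canonical genes was 0.55 in OCILY1, 0.43 in PFEIFFER, 0.64 in SUDHL4, 0.26 in TOLEDO and 0.39 in WSUDLCL2. With vorinostat it was 0.59, 0.65, 0.85, 1.08 and 0.59 in the same order. TOLEDO had the smallest median with pracinostat and the largest with vorinostat. All 77 genes were above DMSO in SUDHL4 with pracinostat and in OCILY1 with vorinostat. PFEIFFER with pracinostat had the fewest genes above DMSO, 68 of 77, and its lowest was RPSA at -0.35.

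**Figure D4:**
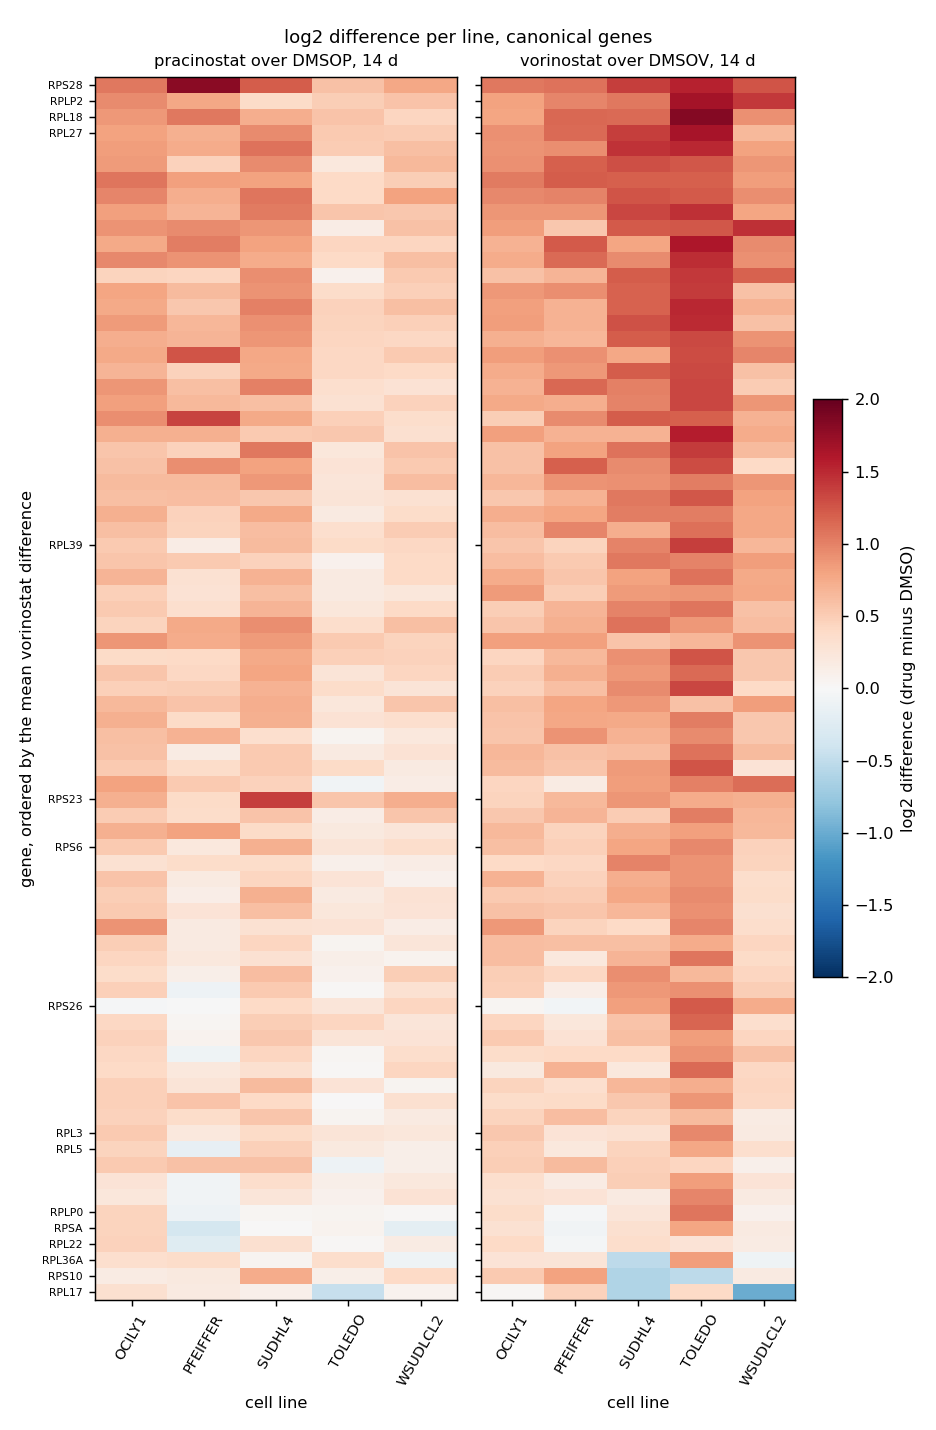
Log2 difference (drug minus DMSO, colour scale) of the 77 canonical genes in each line at 14 days, with pracinostat left and vorinostat right, ordered down the page by the mean vorinostat difference, with some genes named. Red marks higher and blue lower with drug. TOLEDO is palest with pracinostat and darkest with vorinostat, and 15 of 385 cells with pracinostat and 10 of 385 with vorinostat lie below 0.

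Set against each other within the 14-day fit, no ribosomal protein gene differed between pracinostat's effect and vorinostat's effect (0 of 84, where 0.0% of 14037 genes did, by edgeR). DESeq2 and limma also called 0. By edgeR 20 of the 84 had an unadjusted p under 0.05, against 552 of all 14037 genes. The median difference, pracinostat minus vorinostat, was -0.34 over the 84 genes and -0.00 over all genes. It was -0.17 without TOLEDO and -0.22 against the mean of both DMSO sets, and 29 of 77 canonical genes were lower with pracinostat in every line. RPLP2 had a difference of -0.58 (95% interval -0.94 to -0.21, adjusted p = 1.00) and RPL34 one of -0.51 (-0.90 to -0.11). Leaving out the Y-linked paralog, the interval lay wholly below 0 for 24 of 83 genes and wholly above 0 for 0. Neither this count nor that of the 29 genes has a share over all genes beside it. For RPS28 the difference was -0.21 (SE 0.24) and for RPL39L -0.02 (SE 0.41). The medians by line were -0.01 in OCILY1, -0.24 in PFEIFFER, -0.17 in SUDHL4, -0.87 in TOLEDO and -0.20 in WSUDLCL2. Between the solvent sets themselves, DMSOP minus DMSOV, 0 of 84 genes were called, where 0.0% of all genes were, and DESeq2 and limma called 0. By edgeR 3 of the 84 had an unadjusted p under 0.05, against 83 of all 14037 genes. The median was 0.11 and was largest in WSUDLCL2 at 0.37. Without WSUDLCL2 the median was 0.06 and without SUDHL4 0.17. At 6 h 0 of 84 genes differed between the drugs, where 0.0152% of 13177 genes did, and DESeq2 and limma called 0. By edgeR 2 of the 84 had an unadjusted p under 0.05, against 1214 of all 13177 genes. The median difference was 0.01 and ran from -0.08 without WSUDLCL2 to 0.08 without SUDHL4. RPL39L had the highest difference at 6 h, 0.61 (95% interval 0.15 to 1.06, adjusted p = 0.455), and RPL36A the lowest, -0.39 (-0.69 to -0.09, adjusted p = 0.457). Doses are not given, so a difference in dose and a difference between the compounds cannot be told apart.

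At 6 h few ribosomal protein genes moved, although pracinostat raised 21.2% and lowered 18.9% of all 13177 genes, and vorinostat raised 23.1% and lowered 20.9%. With pracinostat 0 of 84 rose and 4 fell, by DESeq2 0 and 3 and by limma 0 and 2. With vorinostat 0 rose and 1 fell, by DESeq2 1 and 1 and by limma 0 and 1. By edgeR 5 of the 84 had an unadjusted p under 0.05 with pracinostat and 4 with vorinostat, against 6349 and 6786 of all genes. The median log2 fold change was -0.09 with pracinostat and -0.10 with vorinostat, against 0.03 and 0.02 over all genes. Scaling by library totals moved the median of all genes to 0.13 and 0.10 and that of the 84 genes to 0.01 and -0.02, so no direction of the set at 6 h is given. Without WSUDLCL2, whose median with pracinostat was 0.18 while the other lines ran from -0.30 to -0.00, 10 genes fell with pracinostat.

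RPL36A and RPL7L1 were the 6 h falls that held in every alternative with the line as block. RPL36A (chromosome X, 101390824 to 101396154), a large-subunit gene of low level here, stood at 9.31 to 23.6 CPM with pracinostat (median over 6 lines 11.9) and at 13.6 to 32.5 CPM in DMSO (median 22.4). All 6 lines were lower, and the groups overlapped. The log2 fold change was -0.74 (SE 0.14, adjusted p = 6.99e-04) with pracinostat and -0.36 (SE 0.15, adjusted p = 0.0646) with vorinostat. Its exons share 8.40% of their bases with a readthrough gene and 81.2% of the 31-base words of its transcript occur in another gene.

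RPL7L1 (chromosome 6, 42879618 to 42889925), a paralog of RPL7, fell with both drugs. It stood at 131 to 339 CPM with pracinostat and 123 to 196 CPM with vorinostat, against 200 to 419 CPM in DMSO. The vorinostat libraries lay wholly below the DMSO libraries. The log2 fold change was -0.50 (SE 0.12, adjusted p = 0.00439) with pracinostat and -0.68 (SE 0.13, adjusted p = 6.60e-04) with vorinostat. RPL7 had -0.04 (SE 0.11) and -0.10 (SE 0.11).

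The other falls with pracinostat at 6 h were RPS23 at -0.32 (SE 0.12, adjusted p = 0.0411) and RPL30 at -0.28 (SE 0.11, adjusted p = 0.0493). RPS23 lost its call under each change of scaling tried, and without OCILY1, PFEIFFER, SUDHL4 or SUDHL6 (adjusted p 0.0577 to 0.164). RPL30 lost its call under every alternative but the one without WSUDLCL2, with an adjusted p of up to 0.162 among those that keep the line as block. RPS28, the largest rise of day 14, had -0.37 (SE 0.24) with pracinostat and -0.19 (SE 0.26) with vorinostat at 6 h, with means of 424 ± 137 CPM (n = 6) and 510 ± 214 CPM (n = 5), against 595 ± 354 CPM in DMSO (SD, n = 6). RPL39L had 0.40 (SE 0.21, adjusted p = 0.15) and -0.20 (SE 0.23).

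A model holding every library gave the 14-day effect minus the 6 h effect of each drug. With pracinostat 50 of 84 genes had a higher effect at 14 days than at 6 h and 1, RPL39L, a lower one, where 9.53% and 9.83% of 15420 genes did. Without SUDHL4 the total called was 24 and without OCILY1 28. With vorinostat 72 were higher and 1 lower, where 11.2% and 12.2% of genes were. The median interaction was 0.56 with pracinostat and 0.82 with vorinostat, against 0.06 and 0.09 over all genes. RPS28 had 1.45 (SE 0.31) and 1.47 (SE 0.32), RPL34 had 0.73 (SE 0.18) and 1.26 (SE 0.19), and RPL36 had 1.12 (SE 0.26) and 1.15 (SE 0.27). RPL39L had -1.85 (SE 0.38) and -1.23 (SE 0.39). Its DMSO level also differed between the times. In SUDHL4 it was 7.60 CPM at 6 h and 25.8 and 26.9 CPM at 14 days, and in WSUDLCL2 12.85 CPM and 30.8 and 29.3 CPM. OCILY1, PFEIFFER and TOLEDO changed little in DMSO. The interaction takes in these DMSO differences, and their part in it was not tested.

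Other features of the 14-day libraries moved with the rise, and their part in it was not tested. Mitochondrially encoded genes took 11.1 to 17.0% of counts with pracinostat, against 6.45 to 11.0% in DMSOP, and 10.5 to 17.5% with vorinostat, against 6.76 to 12.0% in DMSOV. Of counts outside the mitochondrial genes, the ribosomal protein genes took 11.3 to 16.4% with pracinostat, against 8.24 to 11.6% in DMSOP, and 12.3 to 20.2% with vorinostat, against 7.92 to 11.0% in DMSOV. Of 16 tested mitochondrial genes, 15 rose under pracinostat and 11 under vorinostat. Of 76 tested nuclear genes for proteins of the mitochondrial ribosome, pracinostat raised 0 and lowered 10, and vorinostat raised 12 and lowered 16. Of all genes tested at 14 days, pracinostat raised 12.3% and lowered 10.2%, and vorinostat raised 20.4% and lowered 17.2%. The calls for the mitochondrial ribosome with vorinostat were near those shares. Of 8 B-cell markers, 3 rose with each drug and all 8 had positive log2 fold changes, with medians of 0.47 with pracinostat and 0.55 with vorinostat. Their summed level was 3347 to 8524 CPM with pracinostat, against 2644 to 6376 CPM in DMSOP, and 4156 to 9921 CPM with vorinostat, against 2527 to 4642 CPM in DMSOV. Of 6 myeloid markers, ITGAM, CD33 and CSF1R have a row and rose with both drugs, and CD14, LYZ and MPO have none in the table used here. The summed level of the myeloid markers was 0.780 to 19.5 CPM with pracinostat, against 0.0 to 1.57 CPM in DMSOP, and 1.08 to 37.1 CPM with vorinostat, against 0.0 to 1.67 CPM in DMSOV. In DMSO these levels lay near or below what a count of 0 allows, 0.332 to 1.02 CPM for a gene. At 6 h none passed the low-count filter. At 14 days they passed it mainly through the drug libraries, so their calls are no test of a rise.

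Across the 77 canonical genes at 14 days, shorter coding sequences went with larger rises, with a Spearman correlation of coding length and log2 fold change of -0.39 with pracinostat and -0.40 with vorinostat. Among 2883 other protein-coding genes whose mean level was 6 or more on the log2 CPM scale, the same correlation was -0.12 with pracinostat and -0.28 with vorinostat. The share of a gene's 31-base words that occur in another gene, which measures how far reads could be assigned elsewhere, correlated at -0.40 and -0.44. These are correlations across genes that share libraries, given as a description. The 46 canonical genes of 300 to 599 coding bases had a median log2 fold change of 0.52 with pracinostat and 0.82 with vorinostat, and the 19 of 600 to 899 bases 0.41 and 0.69. The 290 such other genes of 300 to 599 bases had medians of -0.11 and 0.05.

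**Figure D5:**
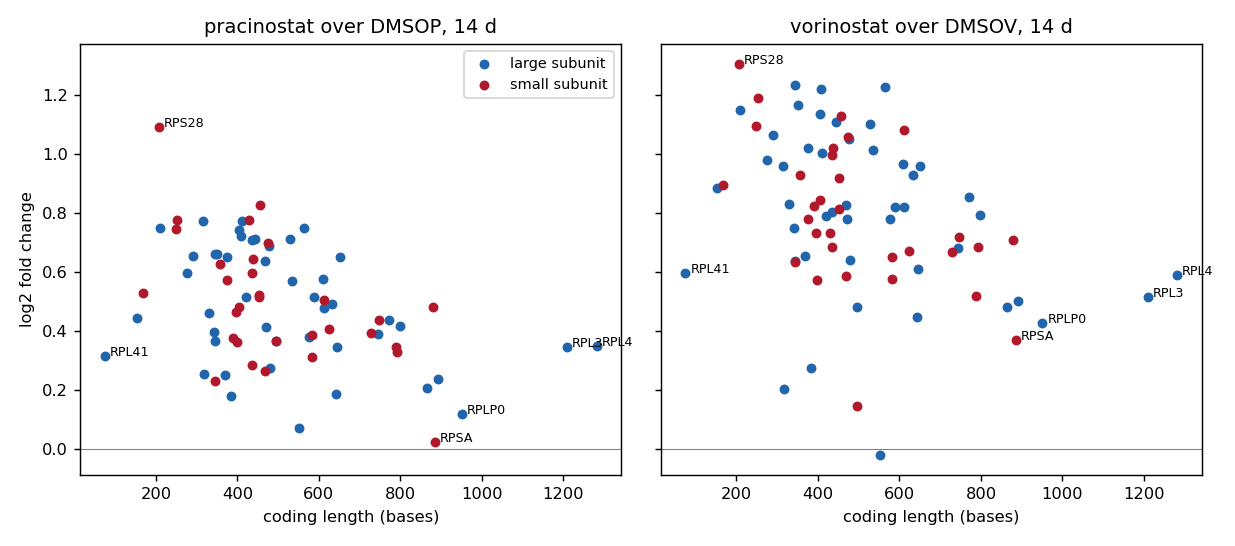
Log2 fold change at 14 days (vertical axis) against coding length in bases (horizontal axis) for the 77 canonical genes, with pracinostat left and vorinostat right; large-subunit genes are blue and small-subunit genes red. RPS28 is short and highest, and RPL3, RPL4, RPLP0 and RPSA are long and lower.

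The processed copies of these genes could share reads with them. The files list 127 ribosomal protein pseudogenes, of which 77 were tested at 14 days. Pracinostat raised 5 and lowered 0, with a median log2 fold change of 0.34, and vorinostat raised 42 and lowered 1, with a median of 0.74. Those raised were 6.49% and 54.5% of the 77, against 12.3% and 20.4% of all genes tested. Of all genes 10.2% and 17.2% were lower. Pseudogenes took 0.0957 to 0.152% of counts with pracinostat, against 0.0771 to 0.131% in DMSOP, and 0.0931 to 0.180% with vorinostat, against 0.0750 to 0.114% in DMSOV. No source used here says how the counting treated reads that match several places.

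FAU, which encodes a ribosomal protein fused to a ubiquitin-like protein, and RACK1, a scaffold on the small subunit, both rose with both drugs at 14 days. FAU had log2 fold changes of 0.68 (SE 0.14) with pracinostat and 0.96 (SE 0.14) with vorinostat, and RACK1 had 0.55 (SE 0.16) and 0.92 (SE 0.16). Of 15 tested translation factors and other genes with TOP messenger RNAs, pracinostat raised 3 and lowered 1, and vorinostat raised 4 and lowered 2. Those raised were 20.0% and 26.7%, against 12.3% and 20.4% of all genes tested, of which 10.2% and 17.2% were lower. With so few genes these shares are near each other. TPT1 rose by 0.57 (SE 0.13) and 0.97 (SE 0.13) and EIF3F by 0.54 (SE 0.13) and 0.86 (SE 0.13), while NPM1, a nucleolar chaperone, fell by 0.37 (SE 0.12) and 0.44 (SE 0.12). The median of these 15 genes was 0.03 with pracinostat and 0.12 with vorinostat.

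Each list here is read against the 14-day shares of all genes, 12.3% higher and 10.2% lower with pracinostat and 20.4% and 17.2% with vorinostat. Genes that host small nucleolar RNAs, which guide the modification of ribosomal RNA, were mixed at 14 days. With pracinostat 4 of 12 were higher and 1 lower, and with vorinostat 6 higher and 1 lower. SNHG8 rose by 0.52 (SE 0.14) and 0.96 (SE 0.14) and SNHG1 fell by 0.47 (SE 0.16) and 0.60 (SE 0.16). Of 20 genes for the import and chaperoning of ribosomal proteins 1 was higher and 4 lower with pracinostat, and 3 higher and 7 lower with vorinostat. WDR89 fell by 0.70 (SE 0.16) and 1.13 (SE 0.16), and NAA10, a subunit of the acetyltransferase that modifies many new proteins, rose by 0.53 (SE 0.17) and 0.98 (SE 0.17). Of 18 regulators of TOP messenger RNAs, the mTOR pathway included, pracinostat raised 1 and lowered 7, and vorinostat raised 1 and lowered 10. LARP1, which binds the TOP motif, fell by 0.38 (SE 0.11) and 0.47 (SE 0.11), LARP1B fell by 1.09 (SE 0.18) and 1.05 (SE 0.18), and RPS6KB2, an S6 kinase, rose by 0.47 (SE 0.14) and 0.83 (SE 0.14).

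At 6 h the related lists are read against the shares of all genes given above, 21.2% higher and 18.9% lower with pracinostat and 23.1% and 20.9% with vorinostat. Of the 15 translation factors and other genes with TOP messenger RNAs, 0 were higher and 2 lower with each drug. Host genes of small nucleolar RNAs fell in 8 of 12 cases with pracinostat and 4 of 12 with vorinostat, led by SNHG3 at -1.30 (SE 0.13) and -1.24 (SE 0.14). Of the 20 import and chaperone genes pracinostat lowered 7 and vorinostat 10, and GRWD1, whose yeast counterpart is a chaperone of Rpl3, had -1.04 (SE 0.13) and -1.23 (SE 0.14). Among regulators of TOP messenger RNAs 4 were higher and 7 lower with pracinostat, and 5 higher and 7 lower with vorinostat, with LARP1 at -0.92 (SE 0.11) and -0.84 (SE 0.12) and EIF4EBP2 at 0.57 (SE 0.11) and 0.81 (SE 0.11). Of 12 tested transcription factors tied to these genes, pracinostat raised 2 and lowered 7, and vorinostat raised 2 and lowered 8. HCFC1 had -2.02 (SE 0.19) and -2.05 (SE 0.21). MYC had -1.07 (SE 0.19) with pracinostat, lower in 6 of 6 lines, and -1.01 (SE 0.20) with vorinostat, lower in 4 of 5. At 14 days MYC had 0.02 (SE 0.19) and -0.03 (SE 0.19). MDM2 fell at 6 h with either drug and had log2 fold changes of -0.78 (SE 0.14) under pracinostat and -0.93 (SE 0.15) under vorinostat.

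Without drug 38 of 84 ribosomal protein genes differed by more than 1 log2 unit between the highest and lowest line, a count given without a share over all genes. Each line's value was the mean of its DMSO libraries, 3 per line over both times, but for SUDHL6 1 library of 6 h. The median range between the highest and lowest line was 0.90 on the log2 scale over canonical genes. RPL22L1 had the widest range, 3.66, with 258 CPM in SUDHL4, 182 in SUDHL6, 105 in PFEIFFER, 93.0 in WSUDLCL2, 39.9 in OCILY1 and 19.5 in TOLEDO. Single DMSO libraries ran from 237 to 278 CPM in SUDHL4, 94.2 to 117 in PFEIFFER, 44.6 to 132 in WSUDLCL2, 33.9 to 51.4 in OCILY1 and 16.2 to 21.5 in TOLEDO. PFEIFFER and WSUDLCL2 thus overlapped, as did WSUDLCL2 and OCILY1, while TOLEDO lay below all others. RPS26 had a range of 2.51, with 796 CPM in TOLEDO, 691 in SUDHL4 and 474 in WSUDLCL2, and 188, 168 and 139 CPM in SUDHL6, OCILY1 and PFEIFFER. TOLEDO and SUDHL4 overlapped, and the lowest DMSO library of these first 3 lines, at 418 CPM, lay above the single library of SUDHL6. RPL39L had a range of 2.44, RPS28 of 2.35 and RPL17 of 2.02. The lowest line for RPL39L was SUDHL6, at 11.4 CPM in its single 6 h library. In DMSO RPL39L stood at 7.60 CPM at 6 h in SUDHL4, and at 25.8 and 26.9 CPM at 14 days. In WSUDLCL2 it stood at 12.85 CPM at 6 h, and at 30.8 and 29.3 CPM at 14 days. Per kilobase of coding sequence the most abundant genes in the 6 h DMSO libraries (mean of 6) were RPL41, RPS18 and RPS27, at 8961, 7645 and 5657 CPM per kilobase.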

How the data were processed

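RNA was sequenced from 6 lymphoma lines with drug or DMSO. The authors deposited whole-number read counts per gene for 37 libraries of the 38 samples listed (1 of the samples listed as SUDHL4 with vorinostat for 14 days is not analysed here), and a log2 CPM table. The deposited log2 values were recomputed from the counts with TMM factors and a prior count of 0.25. Per the submitters' processing notes, STAR, edgeR and hg38 were used. No source used here gives versions or the strand setting. Of 18011 genes, 17859 matched GENCODE 29.

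The count test was that of edgeR 4.0.16 (R 4.3.3), after TMM scaling and filterByExpr with a count of at least 10 and a total of at least 15, in robust quasi-likelihood fits with Benjamini-Hochberg adjustment over all genes and calls at an adjusted p under 0.05. The cell line was the block, since libraries of a line share its cells, which is where the pairing comes from. Each time was fitted apart, with 1 shared estimate of spread. Times were compared in 1 fit with line and time as block. Log2 differences per line used a prior count of 2. The fits were tested on simulated data. Alternatives were other scalings, DESeq2 1.42.0, limma on the log2 values, no filter, no block, leaving out each line and the mean of both DMSO sets.

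Genes were named by a rule: the 5 largest rises and falls per drug among genes called with 1 sign in every line, paralogs with their parents, the stalk, RPL5, RPL11, RPS19, RPSA, RPS6 and RPS27A, up to 2 called per direction in each list, and the 5 widest ranges between lines. RPL4, RPL41 and the uncalled genes listed as such were chosen after their values were seen. Some genes the rule names are not reported here. Members and lists were chosen with earlier results of these data known.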

Additional observations from a re-analysis of the deposited data

Results flagged for a closer look

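Of 86 groups of 4 to 6 libraries or lines examined for a value far from the rest, 4 held one, and chance gives about 1 in 20. The ratio of summed CPM of large-subunit over small-subunit genes in DMSOP was 1.83 in PFEIFFER, above the other 4 lines. The median difference between the drugs' effects at 14 days was -0.87 in TOLEDO, below the other 4 lines. The log2 difference of RPL7L1 with vorinostat at 14 days was -0.52 in WSUDLCL2, below the other 4 lines, and that of RPL22 with pracinostat at 6 h was 0.21 in WSUDLCL2, while the other 5 lines were below DMSO.

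Of 15 ribosomal protein genes whose drug effect was compared between 6 h and 14 days by the interaction test in edgeR, 12 differed with pracinostat and 11 with vorinostat. Over all genes 9.53% had a higher and 9.83% a lower effect at 14 days with pracinostat, and 11.2% and 12.2% with vorinostat. Most of the 15 were named for large changes at one of the times, so these counts describe the genes chosen and are no test of them. With pracinostat the interaction, on the log2 scale, was 1.45 for RPS28, 1.14 for RPL22L1, 0.87 for RPS18, 0.82 for RPS27, 1.07 for RPS23, 0.79 for RPLP2, 0.71 for RPL18, 0.79 for RPL27, 0.98 for RPL36A, 0.52 for RPL7L1 and 0.62 for RPL30. It was -1.85 for RPL39L. With vorinostat it was 1.47 for RPS28, 1.04 for RPL22L1, 1.18 for RPS18, 1.21 for RPS27, 0.82 for RPS23, 1.22 for RPLP2, 1.18 for RPL18, 1.26 for RPL27, 0.78 for RPL30 and 0.90 for RPL39. It was -1.23 for RPL39L.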

How the results depend on the processing

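Counts of ribosomal protein genes called at 14 days and between the times stayed within 1.5 times under other scalings, DESeq2, limma, no filter and the mean of both DMSO sets: 49 to 67 higher with pracinostat and 72 to 77 with vorinostat. The exception was the count of lower genes with vorinostat, 2 under library totals. Without the cell line as block, 0 were higher and 0 lower with pracinostat and 30 higher and 0 lower with vorinostat at 14 days, 0 were lower with pracinostat at 6 h, and the interactions called 1 with pracinostat and 10 with vorinostat. Leaving out 1 line gave 27 to 56 higher with pracinostat at 14 days and 24 to 59 interactions with pracinostat. At 6 h, leaving out 1 line gave 0 to 1 higher and 2 to 10 lower with pracinostat and 0 to 1 higher with vorinostat. The count of higher genes with pracinostat at 6 h was 4 under library totals and 3 under totals without ribosomal protein and mitochondrial genes, and that with vorinostat was 1 under both and 1 by DESeq2. The count of lower genes with pracinostat was 2 under DESeq2 size factors, library totals, totals without those genes, limma and no filter. Fewer libraries remain in the fits without a line, and for the other changes the cause was not tested. Among all genes called with pracinostat at 14 days, 54.7% were higher, 46.5% under library totals and 69.1% under totals without ribosomal protein and mitochondrial genes, and with vorinostat 54.3%, 44.1% and 62.6%. The 0 calls between the drugs and between the DMSO sets were 0 under every alternative run. No named gene reversed the direction of a call. The 6 h median of the ribosomal protein genes with pracinostat was -0.09 and became 0.01 under library totals, and with vorinostat it was -0.10 and became -0.02. With 5 lines and a single library each, small differences between the drugs cannot be resolved.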
